A study of Homo sapiens with 12 samples.

Results

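The genes described here are 32 integrins and focal adhesion genes, 17 integrin chains and 15 cytoplasmic adaptors, kinases and linkers, chosen by gene symbol. Of these, 29 were matched to a probe set of the array by the platform annotation, 1 probe set each, among 21448 probe sets with 17687 symbols. The measured members were 16 integrin chains (8 alpha and 8 beta) and 13 adaptors. ITGA1, TLN1 and TNS1 were not analysed here.

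The RNA came from 2 human lung adenocarcinoma cell lines, PC-9 and H1975, both labelled as carrying EGFR mutations, and was hybridised to a 1-colour GeneChip array. Per the labels, all 12 arrays hold cells that survived 1 week in 0.5 µM osimertinib, a drug that blocks mutant EGFR, and untreated cells were not analysed here. In each line 3 arrays hold such tolerant cells alive 48 h after 100 µM SK-216 was given, and 3 arrays hold tolerant cells collected at day 8. For the SK-216 samples 1 label field names naive cells as the source, whereas titles and treatment text name tolerant cells, and whether osimertinib stayed in the medium is not stated. No tolerant cells collected 48 h later without SK-216 are described, so the compound and the added time cannot be told apart. Each line is 1 established culture model, so a difference between PC-9 and H1975 is one between these lines and not between classes of tumour.

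Integrins are receptors made of 1 alpha and 1 beta chain that span the plasma membrane and bind matrix proteins outside the cell. Inside the cell, talin and the kindlins (the FERMT genes) bind the beta tail and switch the receptor to its active form, while focal adhesion kinase (PTK2), paxillin (PXN), the complex of ILK, PINCH (LIMS1) and parvin (PARVA), and linkers such as vinculin (VCL) and the actinins connect it to signalling and to actin. Which chains a cell makes sets the ligands it can bind, and in epithelial cells adhesion through these receptors supports survival and spreading.

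Values are log2 signals per probe set as deposited by the authors, with array medians between 6.56 and 6.62. Within groups, Pearson's r between arrays ran from 0.9934 to 0.9953 over all probe sets, and no array stood apart. Probe sets of 349 olfactory receptor genes, which these cells are not known to use, gave the level of unexpressed genes. Their median was 3.61 and their 95th percentile 5.05 on the log2 scale, and this percentile is called the olfactory level here. All 5 epithelial markers lay above it in every group, whereas the leukocyte markers PTPRC, CD2 and LYZ, the endothelial markers PECAM1, KDR and TEK and the fibroblast markers DCN and LUM lay below it in every group. Of the marker lists, 3 of 6 leukocyte genes (CD68, CD14 and CD3E) and 3 of 5 fibroblast genes lay above it in every group. Of the 5 endothelial genes 2 did in PC-9 and 0 in H1975. Of the 4 platelet genes 2 did in tolerant PC-9 cells and 1 in each other group. Levels of different probe sets are not set against each other, since probes differ in their response.

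Of the 29 members, 24 had a mean over the 12 arrays above the olfactory level. The other 5 were ITGA4, ITGA7 and ITGA10, alpha chains known from leukocytes, muscle and cartilage, and ITGB2 and ITGB7, beta chains of leukocytes. ITGB2 lay between 3.64 and 4.33 in SK-216 arrays of both lines and between 3.56 and 4.67 in tolerant arrays. ITGB7 lay between 3.34 and 4.11 in SK-216 arrays and between 3.43 and 4.19 in tolerant arrays, so all 12 arrays of both leukocyte beta chains were under the olfactory level. All 13 adaptors lay above it.

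**Figure D1:**
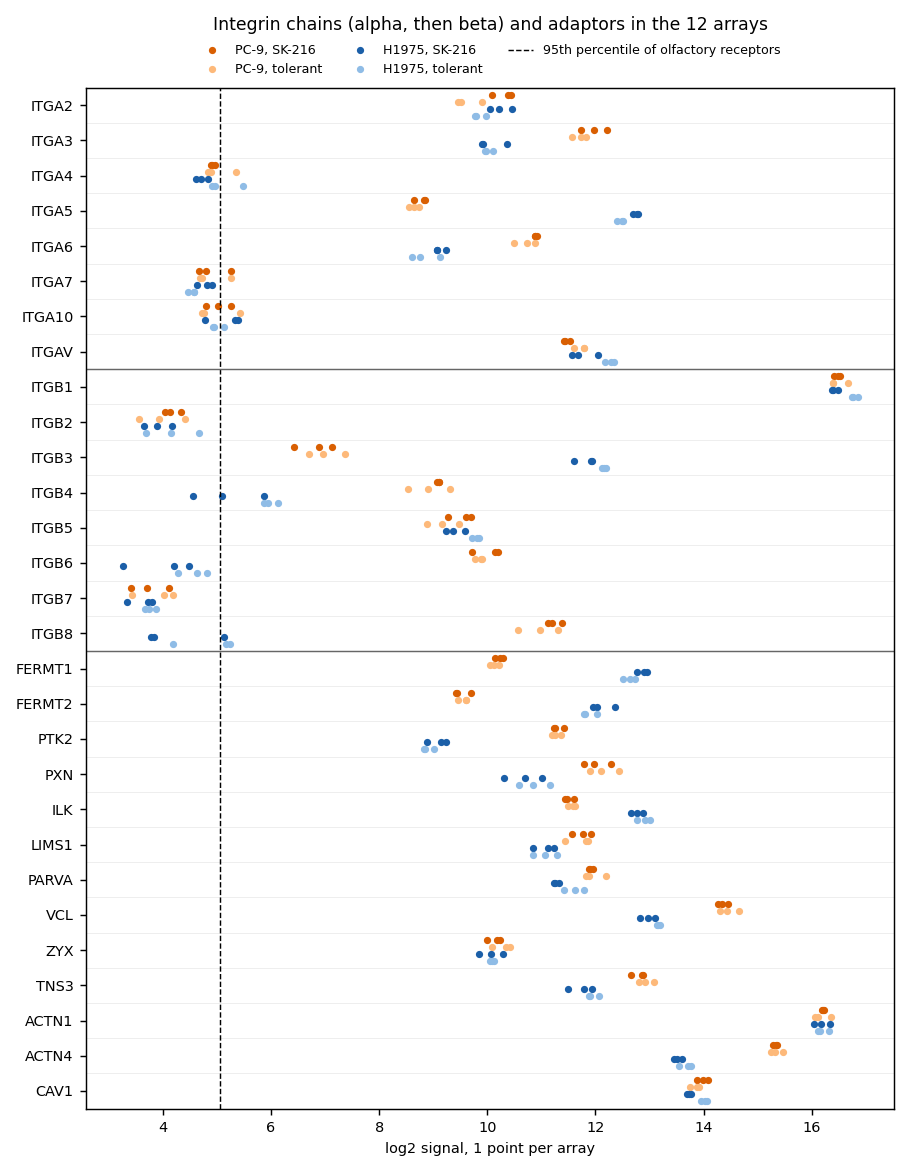
Log2 signal of the 29 measured members (x axis), 1 point per array, with PC-9 and H1975 groups of 3 arrays each in 4 colours, alpha chains above beta chains above adaptors, and a dashed line at the 95th percentile of olfactory receptor probe sets (5.05). ITGA5, ITGB3, ITGB6, ITGB8, FERMT1, FERMT2, PTK2 and ACTN4 separate the lines with no overlap, while the SK-216 and tolerant points of a line lie close together.

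The comparison of PC-9 with H1975 asked how the adhesion genes differed between the lines, first among tolerant cells. Of the 29 members, 20 differed (limma, adjusted p below 0.05, two-sided), 12 higher and 8 lower in PC-9, and 9 did not pass. Over all 21448 probe sets 44% differed, 21.3% higher and 22.7% lower, and among those above the olfactory level 62%. A change of at least 1 on the log2 scale with a call was found for 14 members, beside 21.2% of all probe sets. The median absolute change was 1.00 over the members and 0.37 over all probe sets, on the log2 scale. These sets are unlike, since 24 of the 29 members but 13980 of the 21448 probe sets lay above the olfactory level. The median absolute change over probe sets above that level was not computed. Among the SK-216 arrays, which are other arrays, 19 members differed, 13 higher and 6 lower (43.9% of all probe sets), and 18 were called in the same direction in both comparisons. The share of all probe sets called in both was not computed, so the 18 are not set against a background. In 22 members the tolerant arrays of the lines did not overlap, and in 20 the SK-216 arrays did not, beside 50.2% and 50.6% of all probe sets.

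The largest differences were those of beta chains. ITGB8, a chain that pairs with the alpha V chain and is known for activating latent TGF-beta, had log2 signals of 11.30, 10.57 and 10.97 in tolerant PC-9 cells, against 4.19, 5.24 and 5.16 in tolerant H1975 cells. With SK-216 it was at 11.20, 11.13 and 11.38 in PC-9 cells, against 5.12, 3.77 and 3.83 in H1975 cells. Every PC-9 array was far above every H1975 array, and 3 of the 6 H1975 arrays were under the olfactory level. The change was 6.08 ± 0.29 among tolerant cells (log2 fold change ± standard error, n = 3 arrays per group, limma adjusted p = 1.09e-14), and ITGB8 was at least 55.6-fold higher in PC-9 when H1975 arrays were set no lower than the olfactory level.

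ITGB6, which also pairs with the alpha V chain and is a TGF-beta activating chain of epithelia, had 9.90, 9.89 and 9.77 in tolerant PC-9 cells, against 4.28, 4.82 and 4.63 in tolerant H1975 cells. All 6 H1975 arrays, with and without SK-216, were under the olfactory level, so ITGB6 was at least 27.9-fold higher in tolerant PC-9 cells (limma adjusted p = 5.89e-15). ITGB4, the laminin-binding chain of hemidesmosomes, had 9.30, 8.91 and 8.53 in tolerant PC-9 cells, against 5.86, 6.13 and 5.94 in tolerant H1975 cells, a change of 2.94 ± 0.25. Its partner ITGA6 had 10.88, 10.49 and 10.74 in tolerant PC-9 cells, against 8.76, 9.13 and 8.61 in tolerant H1975 cells, and was higher by 1.87 ± 0.15. Both chains of this laminin receptor were thus higher in PC-9, as was ITGA3, the alpha chain of another laminin receptor, with 11.82, 11.73 and 11.57 in tolerant PC-9 cells, against 9.96, 9.97 and 10.10 in tolerant H1975 cells (1.70 ± 0.14).

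The reverse held for ITGB3 and ITGA5. ITGB3, which pairs with the alpha V chain in the vitronectin receptor, had 7.37, 6.71 and 6.96 in tolerant PC-9 cells, against 12.12, 12.19 and 12.15 in tolerant H1975 cells. The change was -5.14 ± 0.18 (limma adjusted p = 1.61e-17), and the SK-216 arrays gave -5.01 ± 0.18. ITGA5, which pairs with ITGB1 in the main fibronectin receptor, had 8.55, 8.64 and 8.74 in tolerant PC-9 cells, against 12.40, 12.51 and 12.49 in tolerant H1975 cells, and was lower by a log2 change of -3.82 ± 0.11 (limma adjusted p = 1.01e-18). For both chains every PC-9 array was below every H1975 array, with and without SK-216, and the gap between the lines was many times the spread within a group.

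The chains that many receptors share differed little. ITGB1, the common partner of most alpha chains measured here, had 16.67, 16.40 and 16.40 in tolerant PC-9 cells, against 16.77, 16.85 and 16.74 in tolerant H1975 cells. The difference of -0.30 ± 0.07 passed (limma adjusted p = 0.00128) but not with quantile normalization (-0.14, adjusted p = 0.129) or without the variance trend (0.0634). Over all alternatives its adjusted p ran between 3.37e-05 and 0.129, and the SK-216 arrays gave 0.05 ± 0.07, which did not pass. ITGAV, the alpha V chain, had 11.79, 11.61 and 11.78 in tolerant PC-9 cells, against 12.28, 12.34 and 12.17 in tolerant H1975 cells, a difference of -0.54 ± 0.12 (limma adjusted p = 0.000436). With SK-216 it was at -0.30 ± 0.12 (adjusted p = 0.0374), a call that ended without SK-216 H1975 array 3 (0.288) or SK-216 PC-9 array 2 (0.103) or 3 (0.0867) and with the replicate number as a block (0.0546), without the variance trend (0.0985) and with the groups of the comparison fitted alone (0.0513). Its partners ITGB3, ITGB6 and ITGB8 thus differed between the lines far more than ITGAV itself. ITGB5, a further partner of ITGAV, was lower in tolerant PC-9 cells by -0.61 ± 0.16, and with SK-216 its difference was 0.13 ± 0.16 and did not pass. ITGA2, the collagen-binding alpha chain, was at -0.22 ± 0.15 and 0.06 ± 0.15 in the comparisons of tolerant and of SK-216 cells, neither past the test.

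Among the adaptors, 7 were higher and 3 lower in tolerant PC-9 cells. PTK2, focal adhesion kinase, which relays integrin signals, had 11.36, 11.20 and 11.25 in tolerant PC-9 cells, against 9.01, 8.85 and 8.82 in tolerant H1975 cells. The change was 2.38 ± 0.13 (limma adjusted p = 9.76e-14), and the SK-216 arrays gave 2.21 ± 0.13. The kindlins ran the other way. FERMT1, the kindlin of epithelia, had 10.13, 10.05 and 10.21 in tolerant PC-9 cells, against 12.64, 12.73 and 12.50 in tolerant H1975 cells (-2.49 ± 0.11). FERMT2, the broadly expressed kindlin, had 9.61, 9.45 and 9.60 in tolerant PC-9 cells, against 11.81, 12.03 and 11.79 in tolerant H1975 cells (-2.32 ± 0.13). For both kindlins and PTK2 the arrays of the lines did not overlap in either treatment.

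Of the other adaptors, ACTN4, an actin crosslinker, was higher in tolerant PC-9 cells by 1.67 ± 0.08, VCL by 1.30 ± 0.10, PXN by 1.29 ± 0.17, TNS3, a tensin, by 1.00 ± 0.12, LIMS1 by 0.64 ± 0.14 and PARVA by 0.36 ± 0.12. ILK was lower by -1.33 ± 0.10, so the 3 genes of the ILK complex did not run in 1 direction. ACTN1, the other actinin, was at -0.02 ± 0.08 and ZYX, zyxin of actin filament ends, at 0.19 ± 0.14, neither past the test. CAV1, caveolin 1 of membrane invaginations, was at -0.17 ± 0.08 among tolerant cells and did not pass, and at 0.26 ± 0.08 with SK-216, where it did (limma adjusted p = 0.0123).

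Chromosomes 2, 10, 11, 12 and 17 each held members that were higher and members that were lower in tolerant PC-9 cells. Chromosome 17 holds ITGA3 and ITGB4, higher in tolerant PC-9 cells, and ITGB3, lower. Chromosome 12 holds PXN, higher, and ITGA5, lower. Chromosome 2 holds ITGA6, ITGB6 and LIMS1, higher, and ITGAV, lower. On chromosome 7 ITGB8 and TNS3 were higher and 0 members lower, and on chromosome 14 FERMT2 was lower and 0 members higher. Levels of some epithelial markers differed between the lines as well. EPCAM averaged 15.29 ± 0.03 in tolerant PC-9 cells and 8.18 ± 0.30 in tolerant H1975 cells (log2 signal, SD, n = 3). In the same order CDH1, the epithelial cadherin, averaged 11.95 ± 0.07 and 7.58 ± 0.14, and KRT19 averaged 15.76 and 12.91. KRT8, at 16.30 and 16.13, and KRT18, at 14.65 and 14.30, lay closer together. No test of these markers between the lines is given here. The summed linear signal of the 5 epithelial markers lay between 203197 and 208503 in tolerant PC-9 arrays. In tolerant H1975 arrays it lay between 98056 and 101838, and there it followed mainly KRT8 and KRT18. EPCAM and CDH1 added little to the H1975 sums. The part of the epithelial markers in the differences of the adhesion genes was not tested.

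**Figure D2:**
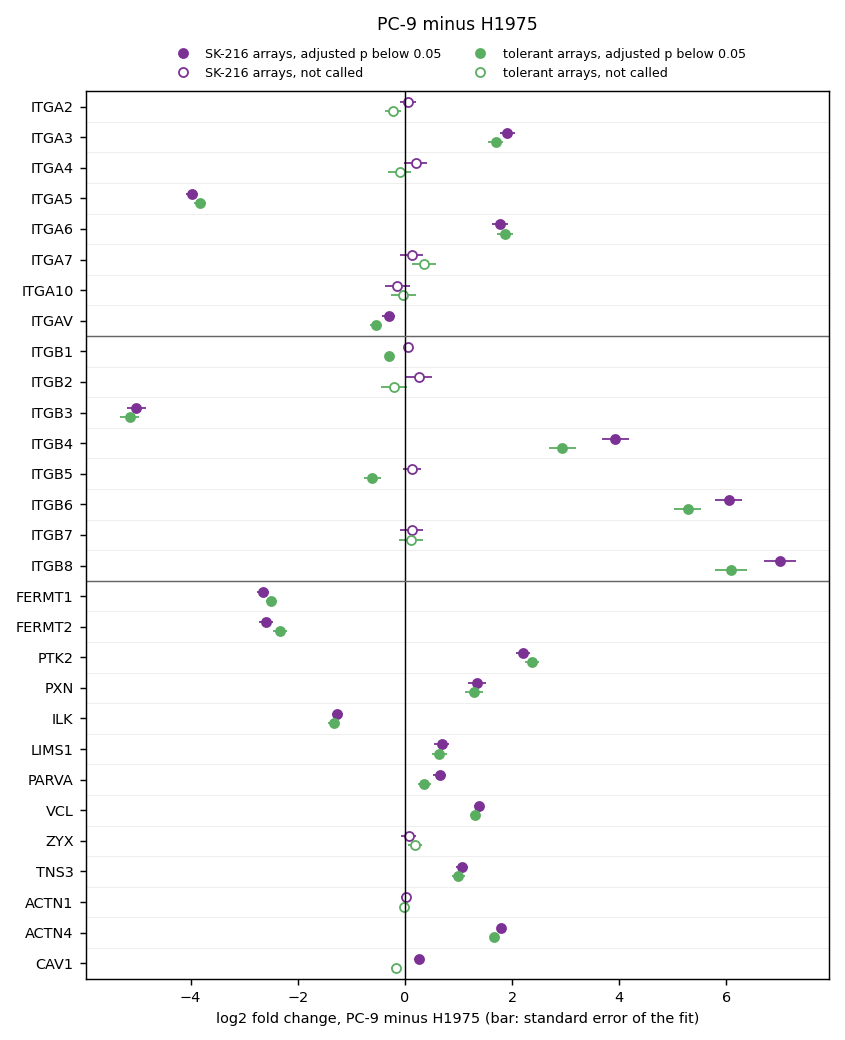
Log2 fold change, PC-9 minus H1975, of the 29 members (x axis) among SK-216 arrays and among tolerant arrays (2 colours, 3 arrays per group), with standard errors of the fit as bars and filled points for adjusted p below 0.05. ITGB8, ITGB6 and ITGB4 lie far to the right and ITGB3 and ITGA5 far to the left in both comparisons, and 18 members are filled in both with the same direction.

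Promoter sequence was available for 21 of the 29 members, from RefSeq on GRCh38.p14. The 250 bases before the annotated start are shown for the members with 1 start and the largest differences between tolerant lines in each direction, ITGB8 and ITGB6, higher in PC-9, and ITGA5 and FERMT2, lower in PC-9. Capitals mark matches, on either strand, to TGANTCA, the AP-1 motif, to GGAATG, the TEAD motif, to GGGCGG, the GC box, and to TATAAA, the core of the TATA box, and overlapping matches are joined. ITGB8 lies at chr7:20330650-20330899 on the plus strand, and ITGB6 at chr2:160200273-160200522, ITGA5 at chr12:54419267-54419516 and FERMT2 at chr14:52951051-52951300 on the minus strand, each written 5′ to 3′ along the gene.
ITGB8: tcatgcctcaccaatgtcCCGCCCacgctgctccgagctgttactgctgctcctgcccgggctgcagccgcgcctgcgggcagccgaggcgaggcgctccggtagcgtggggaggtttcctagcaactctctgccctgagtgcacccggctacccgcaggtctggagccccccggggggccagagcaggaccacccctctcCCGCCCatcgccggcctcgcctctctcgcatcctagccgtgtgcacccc
ITGB6: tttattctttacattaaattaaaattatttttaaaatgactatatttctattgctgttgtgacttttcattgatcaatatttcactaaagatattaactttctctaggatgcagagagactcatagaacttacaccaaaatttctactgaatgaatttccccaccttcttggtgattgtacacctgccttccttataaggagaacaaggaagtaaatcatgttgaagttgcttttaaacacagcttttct
ITGA5: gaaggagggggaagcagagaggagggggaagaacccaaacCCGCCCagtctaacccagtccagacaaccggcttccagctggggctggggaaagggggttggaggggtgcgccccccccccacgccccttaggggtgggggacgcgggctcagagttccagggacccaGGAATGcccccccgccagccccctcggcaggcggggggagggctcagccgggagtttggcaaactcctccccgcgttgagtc
FERMT2: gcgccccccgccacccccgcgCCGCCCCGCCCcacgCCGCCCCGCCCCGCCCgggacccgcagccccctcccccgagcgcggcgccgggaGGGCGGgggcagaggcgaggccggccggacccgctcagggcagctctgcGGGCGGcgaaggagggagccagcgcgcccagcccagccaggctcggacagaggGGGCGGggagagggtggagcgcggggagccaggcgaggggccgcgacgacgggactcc
The windows differed in base composition, with 71.2% G or C in ITGB8 and 30% in ITGB6, and 70.0% in ITGA5 and 84.4% in FERMT2, against a median of 58.0% over all 35116 windows of this length. The GC box matched 2 times in ITGB8, 0 times in ITGB6, 1 time in ITGA5 and 8 times in FERMT2, and 42.6% of all windows hold it. The TEAD motif matched 1 time, in ITGA5, and is found in 11.9% of all windows. The AP-1 motif and the TATA box, found in 6.6% and 10.7% of all windows, matched in none of these 4. The 2 genes that were higher in PC-9 thus shared none of these motifs, and the matches are a description of letters and not of bound sites.

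Between the SK-216 and the tolerant arrays of H1975, most of the adhesion genes did not pass. Of 29 members, 3 fell and 0 rose (limma adjusted p below 0.05), beside 3.8% of all probe sets called, 2.35% lower and 1.44% higher, and 5.46% of those above the olfactory level. They were ITGB1, ITGAV and CAV1. Another 8 members had an unadjusted p below 0.05, 11 in all, beside 3045 of the 21448 probe sets. No member with a call changed by 1 or more on the log2 scale, as 0.718% of all probe sets did. The median change was -0.17 over the 24 members above the olfactory level, against -0.0033 over all probe sets above it. It was -0.15 over all 29 members, against 0.01 over all probe sets. In 12 members the arrays of the groups did not overlap, beside 18.5% of all probe sets, and 2 of the 12, ITGA4 and ITGA7, are members at or below the olfactory level.

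ITGB1 had log2 signals of 16.40, 16.38 and 16.49 in H1975 cells with SK-216, against 16.77, 16.85 and 16.74 in tolerant H1975 cells. All SK-216 arrays were below all tolerant arrays. The change of -0.36 ± 0.07 (limma adjusted p = 0.00289) is small. It passed whichever of the 12 arrays was left out, with adjusted p up to 0.0226, and did not pass when the variance trend was dropped (0.185). ITGAV had 11.57, 11.67 and 12.04 in H1975 cells with SK-216, against 12.28, 12.34 and 12.17 in tolerant H1975 cells, with the third SK-216 array closest to the tolerant ones. The change was -0.50 ± 0.12 (limma adjusted p = 0.0119). The call ended without SK-216 array 1 (adjusted p = 0.0969) or 2 (0.0571) and without tolerant array 1 (0.0521) or 2 (0.0633), and also when the variance trend was dropped (0.0987).

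CAV1 had 13.69, 13.73 and 13.76 in H1975 cells with SK-216, against 14.03, 14.06 and 13.96 in tolerant H1975 cells. The arrays did not overlap, but the change of -0.29 ± 0.08 lay close to the threshold (limma adjusted p = 0.0476). The call ended in 11 of the 12 fits that left out 1 array, all but the one without tolerant PC-9 array 1, with adjusted p up to 0.162 without SK-216 H1975 array 1. It was 0.0988 with the replicate number as a block, and over all alternatives its adjusted p ran between 0.0323 and 0.288.

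Of the other beta chains none passed in H1975. ITGB2, ITGB6 and ITGB7 were under the olfactory level in all 6 H1975 arrays and ITGB8 in 3 of 6, so their changes are differences between values at or near that level and no direction is read from them. ITGB4 had 4.55, 5.86 and 5.09 in H1975 cells with SK-216, against 5.86, 6.13 and 5.94 in tolerant H1975 cells, a change of -0.81 ± 0.25 that did not pass (limma adjusted p = 0.0778) and that touches the olfactory level. It passed when SK-216 array 2 was left out and when probe sets at the olfactory level were left out. ITGB8, at -0.62 ± 0.29, passed when SK-216 array 1, its highest in that group, was left out. The SK-216 values that remained, 3.77 and 3.83, were under the olfactory level, so no direction is read from that pass either. ITGB5 was at -0.39 ± 0.16 and ITGB3 at -0.33 ± 0.18, and in both the arrays of the groups did not overlap, though neither passed. Among the alpha chains none rose past the test, with ITGA2 at 0.39 ± 0.15, ITGA6 at 0.28 ± 0.15 and ITGA5 at 0.28 ± 0.11.

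Among the adaptors, CAV1 was the 1 call of 13 in H1975, beside 5.46% of all probe sets above the olfactory level. The median change of the adaptors was -0.14, against -0.0033 over those probe sets. Over the 16 chains it was -0.30, a median that takes in chains at or near the olfactory level in H1975. The adaptor changes ranged from -0.34, that of PARVA, to 0.25, that of FERMT1. PTK2 had 9.24, 8.89 and 9.14 in H1975 cells with SK-216, against 9.01, 8.85 and 8.82 in tolerant H1975 cells, overlapping groups with a change of 0.20 ± 0.13. The 5 actin linkers VCL, ZYX, TNS3, ACTN1 and ACTN4 lay between -0.20 and -0.01. The epithelial markers CDH1, KRT8 and EPCAM were called in H1975 as well, in both directions. CDH1 and KRT8 fell, CDH1 averaging 6.04 with SK-216 and 7.58 in tolerant cells and KRT8 averaging 15.89 with SK-216 and 16.13 in tolerant cells, and EPCAM rose, averaging 8.95 with SK-216 and 8.18 in tolerant cells (limma adjusted p = 4.51e-08 for CDH1, 0.0287 for KRT8 and 0.00044 for EPCAM). The summed linear signal of the 5 epithelial markers lay between 83334 and 85742 in H1975 arrays with SK-216. In tolerant H1975 arrays it lay between 98056 and 101838, and in both groups it followed mainly KRT8 and KRT18. The summed signal of the 5 fibroblast markers lay between 742 and 809 with SK-216 and between 993 and 1205 in tolerant H1975 arrays. Of these COL1A1 was called lower, and DCN and LUM were under the olfactory level. The part of either marker list in the changes of the adhesion genes was not tested.

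**Figure D3:**
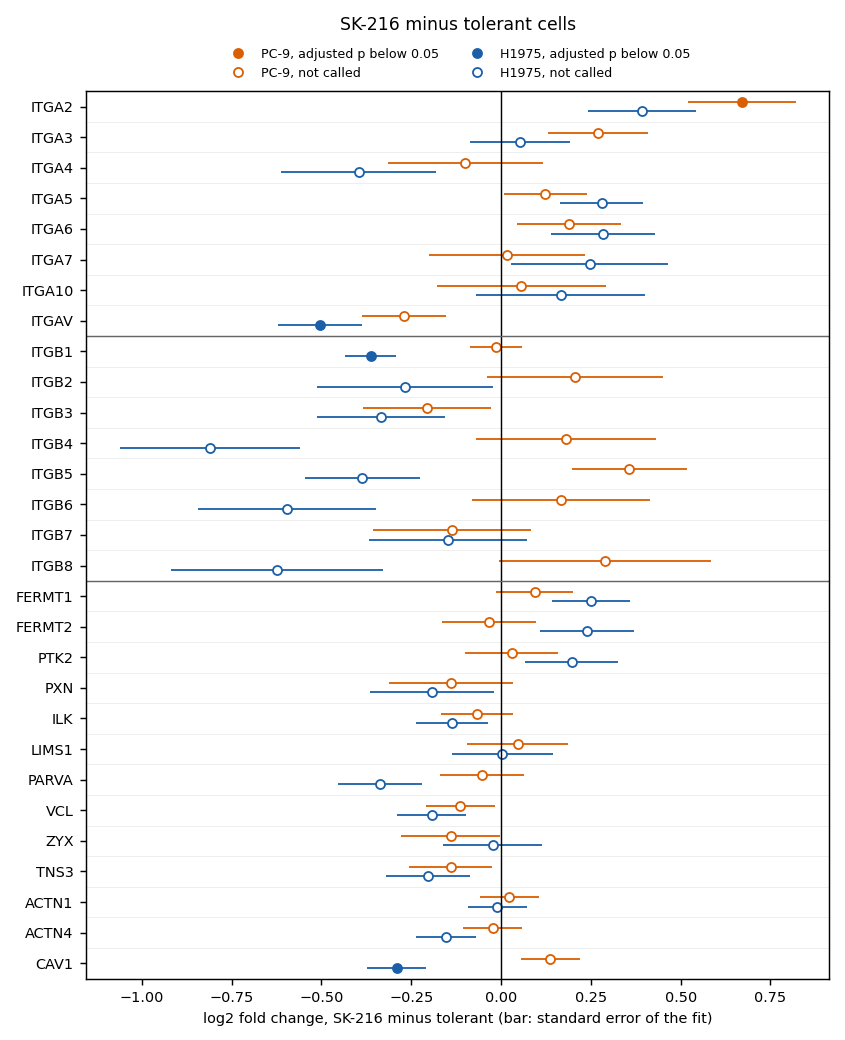
Log2 fold change, SK-216 minus tolerant cells, of the 29 members (x axis) in PC-9 and in H1975 (2 colours, 3 arrays per group), with standard errors of the fit as bars and filled points for adjusted p below 0.05. In H1975 ITGB1, ITGAV and CAV1 are filled and lie left of 0, and in PC-9 only ITGA2 is filled and lies right of 0.

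In PC-9 1 member was called after SK-216. ITGA2, which pairs with ITGB1 in a collagen and laminin receptor, had 10.08, 10.43 and 10.38 in PC-9 cells with SK-216, against 9.91, 9.51 and 9.46 in tolerant PC-9 cells. All SK-216 arrays were above all tolerant arrays, and ITGA2 rose by 0.67 ± 0.15 (limma adjusted p = 0.0441), beside 0.443% of all probe sets called, 0.373% higher and 0.0699% lower. The call lies close to the threshold. It ended in 7 of the 12 fits that left out 1 array, with adjusted p = 0.254 and 0.155 without SK-216 PC-9 arrays 2 and 3, 0.131 and 0.194 without tolerant PC-9 arrays 2 and 3, 0.0574 without SK-216 H1975 array 1, and 0.0594 and 0.0519 without tolerant H1975 arrays 1 and 2. With the replicate number as a block its adjusted p was 0.12, and over all alternatives it ran between 0.018 and 0.254. In H1975, ITGA2 had 10.22, 10.04 and 10.46 with SK-216, against 9.78, 9.97 and 9.79 in tolerant cells, again with no overlap, at 0.39 ± 0.15, which did not pass (limma adjusted p = 0.187).

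The other 28 members did not pass in PC-9, and 3 in all had an unadjusted p below 0.05, beside 2342 of the 21448 probe sets. The median change over the members was 0.02, against 0.00 over all probe sets. ITGAV had 11.52, 11.41 and 11.44 in PC-9 cells with SK-216, against 11.79, 11.61 and 11.78 in tolerant PC-9 cells, groups that did not overlap, with a change of -0.27 ± 0.12 that did not pass (limma adjusted p = 0.391). ITGAV and ITGA2 were the 2 members without overlap, beside 15% of all probe sets. ITGB1 had 16.53, 16.49 and 16.41 in PC-9 cells with SK-216, against 16.67, 16.40 and 16.40 in tolerant PC-9 cells, where the groups overlapped (-0.01 ± 0.07). PTK2 was at 0.03 ± 0.13, with 11.23, 11.41 and 11.26 in PC-9 cells with SK-216, against 11.36, 11.20 and 11.25 in tolerant PC-9 cells. The summed linear signal of the 5 epithelial markers lay between 224543 and 233636 in PC-9 arrays with SK-216 and between 203197 and 208503 in tolerant PC-9 arrays. That of the 6 leukocyte markers lay between 3683 and 4056 with SK-216 and between 3158 and 3305 in tolerant PC-9 arrays, with PTPRC, CD2 and LYZ under the olfactory level. CD68 averaged 11.86 with SK-216 and 11.60 in tolerant PC-9 cells on the log2 scale. CD14, the next highest, averaged 5.85 and 5.79, so the leukocyte sums follow almost only CD68. The summed signal of the 5 fibroblast markers lay between 465 and 606 with SK-216 and between 339 and 461 in tolerant PC-9 arrays. DCN and LUM were again under the olfactory level. No epithelial, leukocyte or fibroblast marker was called in PC-9, and the part of these lists in the change of ITGA2 was not tested.

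The difference between the lines in the SK-216 change was tested as an interaction. No member passed (limma, 0 of 29, against 1.42% of all probe sets called, 1.09% with a higher and 0.331% with a lower value in PC-9, 0.685% with a difference of at least 1, and 2.04% of those above the olfactory level). An unadjusted p below 0.05 was found for 6 of the 29 members, beside 2723 of the 21448 probe sets. The difference, PC-9 minus H1975, was 0.35 ± 0.10 for ITGB1 (limma adjusted p = 0.091), 0.43 ± 0.12 for CAV1 (0.0689), 0.74 ± 0.23 for ITGB5 (0.111), 0.99 ± 0.35 for ITGB4 (0.202) and 0.23 ± 0.16 for ITGAV (0.606). Without tolerant PC-9 array 1, which holds the high value of 16.67, the difference of ITGB1 was 0.44 and passed (limma adjusted p = 0.00968). The comparisons of the lines and of SK-216 share the tolerant arrays, so a value that is high in tolerant H1975 cells enters both.

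Integrin chains and adaptors were also set side by side. For SK-216 in H1975, 2 of 16 chains and 1 of 13 adaptors were called, beside 3.8% of all probe sets. In PC-9, 1 of 16 chains and 0 of 13 adaptors were called, beside 0.443% of all probe sets. Between tolerant lines 10 of 16 chains and 10 of 13 adaptors were called, beside 44% of all probe sets. Of the chains 11 lay above the olfactory level, and all 10 calls were among them, while all 13 adaptors lay above it. Among all probe sets above that level, 62% were called between tolerant lines. For SK-216 that share was 5.46% in H1975 and 0.665% in PC-9. The chains ran from -5.14 to 6.08 between tolerant lines, the adaptors from -2.49 to 2.38.

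Further genes of the pathway were taken from a list of 103, of which 92 were measured: 62 other focal adhesion genes, 10 other integrin chains and 20 integrin ligands. In H1975, 9 fell and 0 rose after SK-216 (2.35% and 1.44% of all probe sets), 4 of the focal adhesion genes, 0 of the integrin chains and 5 of the ligands. In PC-9 none passed (limma, 0 of 92, beside 0.443% of all probe sets called). An unadjusted p below 0.05 was found for 9 of the 92, beside 2342 of the 21448 probe sets. The median change was -0.10 in H1975 and -0.03 in PC-9, against 0.01 and 0.00 over all probe sets.

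PTK2B, the kinase PYK2 and closest relative of focal adhesion kinase, changed most. It had 9.44, 9.86 and 9.83 in H1975 cells with SK-216, against 10.90, 11.25 and 10.78 in tolerant H1975 cells. PTK2B fell in H1975, with a change of -1.27 ± 0.14 (limma adjusted p = 1.91e-06). In PC-9 it had 11.02, 10.93 and 11.04 with SK-216, against 11.16, 10.99 and 10.99 in tolerant cells (-0.05 ± 0.14), and the difference between the lines passed (1.22 ± 0.19, limma adjusted p = 0.00104). PTK2 itself passed in neither line.

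FN1, fibronectin, the ligand of the receptor made of ITGA5 and ITGB1, had 12.91, 13.06 and 12.90 in H1975 cells with SK-216, against 13.79, 13.53 and 13.70 in tolerant H1975 cells. In PC-9 it had 12.05, 12.51 and 12.40 with SK-216, against 12.17, 11.80 and 12.02 in tolerant cells. FN1 fell in H1975 (-0.72 ± 0.12), did not pass in PC-9 (0.32 ± 0.12), and differed between the lines by 1.04 ± 0.17 (limma adjusted p = 0.00105, and 0.0554 without the variance trend). EDIL3, a secreted ligand of ITGAV receptors, had 13.40, 13.46 and 13.49 in H1975 cells with SK-216, against 14.04, 14.05 and 14.01 in tolerant H1975 cells, and the groups did not overlap. It fell by a log2 change of -0.58 ± 0.11 in H1975 (limma adjusted p = 0.00269, and 0.0578 without the variance trend) and was at -0.38 ± 0.11 in PC-9, which did not pass.

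COL1A1, a collagen chain, had 7.96, 8.23 and 7.76 in H1975 cells with SK-216, against 9.20, 8.79 and 8.85 in tolerant H1975 cells. COL1A1, also 1 of the 5 fibroblast markers, fell in H1975, at -0.96 ± 0.21 (limma adjusted p = 0.00693), and was at 0.01 ± 0.21 in PC-9. Its call ended without SK-216 H1975 array 3 (limma adjusted p = 0.051) or tolerant H1975 array 1 (0.064). SPP1, osteopontin, a ligand of ITGAV receptors, was called lower in H1975 at -0.68 ± 0.15, with 4.31, 4.78 and 4.42 with SK-216, against 5.43, 5.03 and 5.10 in tolerant cells, around the olfactory level. Its call ended without SK-216 H1975 array 1 (limma adjusted p = 0.0529) or tolerant H1975 array 1 (0.0696), and with the H1975 groups fitted alone (0.109). In PC-9 SPP1 lay far above that level, at 13.78, 13.82 and 13.73 with SK-216, against 13.60, 13.68 and 13.48 in tolerant cells.

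**Figure D4:**
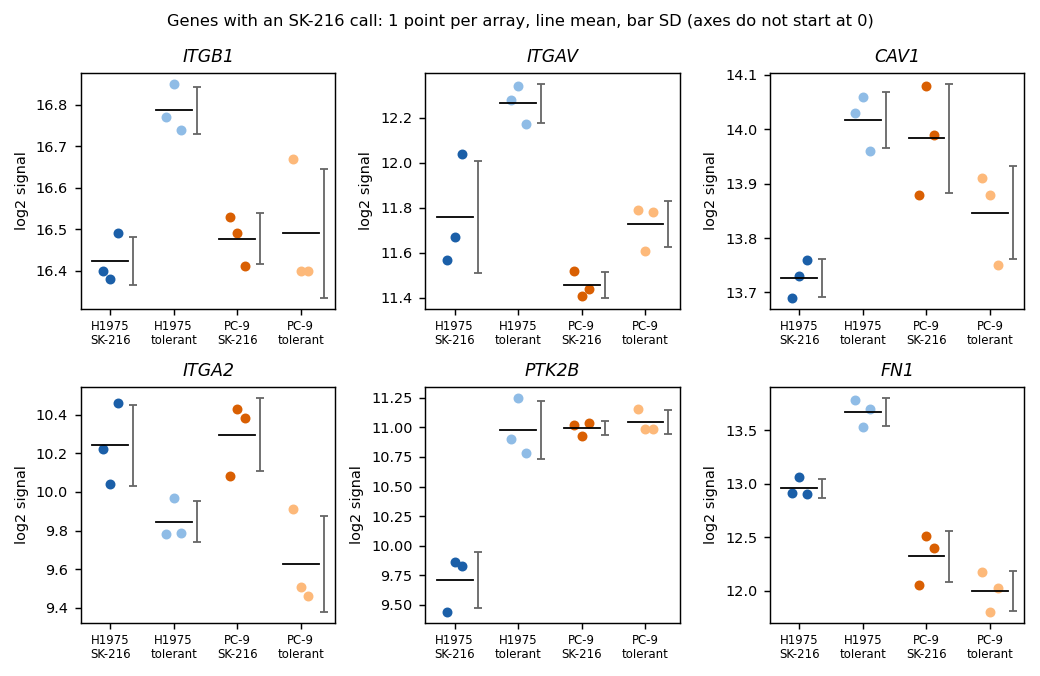
Log2 signal (y axis, not starting at 0) of ITGB1, ITGAV, CAV1, ITGA2, PTK2B and FN1 in the 4 groups, 1 point per array, with the mean as a line and the SD as a bar (n = 3). In H1975 the SK-216 arrays of ITGB1, ITGAV, CAV1, PTK2B and FN1 lie below all tolerant arrays, and in PC-9 the SK-216 arrays of ITGA2 lie above all tolerant ones.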

How the data were processed

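RNA of 12 samples, 250 ng each per the labels' protocols, was hybridised to an array with 1 colour. The authors deposited log2 signals, 1 per probe set and array, from 2.19 to 18.61. Per the submitters' processing notes, Transcriptome Analysis Console was used. Its version, the summarisation, the normalization and the build were not given in the sources used here. A probe set's values rest on whatever summarisation was applied. Probe sets were named by the platform annotation through Entrez identifiers: 17709 had 1 symbol, 0 several, and 3739 none here.

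The 4 group means were estimated in 1 limma model (limma 3.58.1, R 4.3.3, eBayes with a variance trend, 8 residual degrees of freedom), with Benjamini-Hochberg adjustment over 21448 probe sets and no filter. The labels do not state that the replicates are separate cultures, and p-values therefore measure only variation among the arrays used, possibly technical. Arrays give no read depth, and their number limits the precision.

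Replicate numbers are shared between groups. Deviations of arrays with the same number correlated at r between -0.0912 and 0.0295, so the numbers were not taken as pairs. Members, lists and tests were chosen with earlier results of these data known. Array values were given by a rule, for groups that were compared and not always for every group. The rule took members with an SK-216 or interaction call, the 10 largest line differences, ITGB1, ITGAV and PTK2. It also took up to 5 called pathway genes per SK-216 comparison. ITGB4, ITGB5, ITGB2 and ITGB7 were also given values after they were seen. Alternatives were other variance models, groups fitted alone, a replicate block, filters on dim probe sets, other normalizations, array weights and leaving out each array, of which the filter at the olfactory level was added after the data were seen. Figures were drawn with matplotlib 3.10.9.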

Additional observations from a re-analysis of the deposited data

Results flagged for a closer look

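The SK-216 change differed between the lines for 3 of the 92 measured genes of the wider pathway list by the interaction test. Over all probe sets 1.42% were called in this test, and 2.04% of those above the olfactory level. The difference, PC-9 minus H1975, was 1.22 for PTK2B, 1.04 for FN1 and 0.87 for SPP1 on the log2 scale. SPP1 lay around the level of olfactory receptors in H1975, and its call (limma adjusted p = 0.0405) ended in 9 of the 12 fits that left out 1 array, all but those without SK-216 H1975 array 2 or tolerant H1975 arrays 2 or 3, with adjusted p up to 0.116 (without tolerant PC-9 array 3). It also ended with the replicate number as a block (0.0894), with quantile normalization (0.0523) and when the variance trend was dropped (0.111), so in 12 of its 20 alternatives. The call of PTK2B held in all of its 20 alternatives (highest adjusted p = 0.0269).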

How the results depend on the processing

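Calls between the lines changed little: 19 to 21 members among tolerant arrays and 17 to 19 among SK-216 arrays over all alternatives run. SK-216 calls depended more on the processing, and the cause was not tested. Without the variance trend the calls in H1975 were 0 members and 448 probe sets (814 with it), in PC-9 0 members and 18 probe sets (95 with it), and for the difference 99 probe sets (304 with it). The member called in PC-9 was also lost, leaving 0, with the groups fitted alone, with quantile normalization and with the replicate number as a block, which left 58 probe sets in PC-9 (95 without the block) and, of the 3 members called in H1975, ITGB1 and ITGAV. For the difference 1 member, CAV1, passed without the dimmest 30% of probe sets and without those at the olfactory level, against 0 with all probe sets. More p-values are adjusted over all probe sets, but why CAV1 passed with these filters was not tested. Leaving out 1 array gave 1 to 3 members and 545 to 918 probe sets in H1975, 0 to 1 members and 30 to 104 probe sets in PC-9, and 0 to 1 members and 220 to 335 probe sets for the difference. The PC-9 count was 30, 59 and 60 probe sets without SK-216 PC-9 arrays 2, 3 and 1, and 46 without tolerant PC-9 array 3. The count of 1 in H1975, ITGB1, came without tolerant H1975 array 1 or 2, and the members that passed for the difference were ITGB4 without SK-216 H1975 array 2 and ITGB1 without tolerant PC-9 array 1. No named gene with a call turned its direction in any alternative. With 3 arrays per group, a change that missed the threshold is not shown to be absent.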
